A study of Homo sapiens with 65 samples.

Results

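Cardioids carrying a knockout of HAS2 (KO) were followed over the day in which they leave the primitive streak state and enter cardiac mesoderm, from day 1.5 to day 2.5 of differentiation. The comparison rests on 12 of the 65 libraries of the series, chosen by their titles: the 6 KO libraries of day 1.5 and the 6 KO libraries of day 2.5. Cardioids are self-organising heart-like aggregates, here of the left-ventricular kind, made from the human induced pluripotent stem cell line WTC-11, and 8 of them were pooled for a library according to the labels. The KO libraries came from 4 clones. Clone cl4 was sampled in 3 repeats (cl4_R1, cl4_R2 and cl4_R3), and clones cl14, cl46 and cl51 were sampled once each, at both days. Wild-type libraries (WT) of the same days, 5 at day 1.5 and 6 at day 2.5, from the lines named WT, WT_TU, cl43_WT_UT and TNT2, served for a single question: whether the KO step differed from the WT step.

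All these groups had the same protocol. From day 0 to day 1.5 the cells grew in wells with 5 ng/ml Activin A, 10 ng/ml BMP4, 5.5 ng/ml FGF2-G3, 3 µM CHIR99021 (a GSK3 inhibitor that switches on WNT signalling) and 5 µM LY294002 (a PI3K inhibitor). At day 1.5 they were dissociated and reseeded as aggregates with 10 ng/ml BMP4, 1.466 ng/ml FGF2-G3, 10 µg/ml insulin, 2 µM C59 (an inhibitor of WNT secretion), 50 nM retinoic acid and, for the first day, 5 µM ROCK inhibitor. The day, the change of medium, the dissociation and the aggregation therefore coincide and cannot be told apart.

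In the embryo, cells of the primitive streak form under NODAL, WNT, BMP and FGF signals and switch on the T-box factors TBXT and EOMES and the homeobox factor MIXL1. Cells that leave the streak as cardiac mesoderm pass through a MESP1 state, lower NODAL and WNT activity, and take up HAND, GATA, ISL1 and TBX5 factors under BMP and retinoic acid. HAS2 makes hyaluronan, a long sugar polymer of the extracellular matrix that fills the early heart's jelly.

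HAS2 itself (chromosome 8, 121612116 to 121641390 on GRCh38, minus strand) rose over the step in these KO libraries. It had 93.9 to 301 CPM (a library's count for a gene scaled to 1000000 counts) at day 1.5 (median 143) and 442 to 913 CPM at day 2.5 (median 515). All 6 libraries of day 2.5 lay above all 6 of day 1.5, and the log2 fold change was 1.58 ± 0.28 (SE; edgeR quasi-likelihood test, adjusted p = 1.82e-05). The library kit reads the 3′ end of transcripts, so transcripts of a gene mutated elsewhere are still counted, and this level does not check the KO labels.

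Total counts were 1454864 to 3248079 per library at day 1.5 and 831062 to 1914654 at day 2.5, and a gene with at most 3 counts in every library of a day was treated as at the floor. The share of mitochondrial counts was 0.343% ± 0.212 (SD, n = 6) at day 1.5 and 0.339% ± 0.0844 (SD, n = 6) at day 2.5 (exact permutation test, two-sided, p = 0.965). That test took the 6 libraries of a day as independent, although 3 were repeats of clone cl4, and it ignored the names shared across days. The libraries of the repeat cl4_R1 stood apart from the other KO libraries. Over genes with more than 3 counts, cl4_R1 was separated from the other 5 libraries by a gap over 0.625 of the group's range (Dixon's critical value for 6) for 15.9% of 13039 genes at day 1.5 and 8.98% of 13381 genes at day 2.5, against at most 3.08% and 0.688% for any other library. The column names carry library numbers but mark no blocks. For this report the numbers of the KO and WT libraries were split into 3 blocks (number sets). The lowest block held cl4_R1 and the WT libraries WT_R1 and WT_TU_R1. At day 1.5 cl4_R1 stood apart in 2070 genes. In 1913 of them (92.4%) the WT pair of that block lay beyond the other 3 WT libraries on the same side as cl4_R1. The WT pair was apart on either side for 62.7% of all 13039 genes. At day 2.5 the same-side count was 727 of 1202 genes (60.5%), and the WT pair was apart on either side for 56.5% of all 13381. The shares of all genes count both sides, so they give no base rate for the same-side counts. Values without both cl4_R1 libraries are given beside the named calls that were lost without them.

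Of 13797 genes tested, 4600 differed between the days at an adjusted p under 0.05 (33.3%). Of these, 2376 were higher at day 2.5 (17.2% of the genes tested) and 2224 were lower (16.1%), and 1770 of the higher and 1193 of the lower changed at least 2-fold. Counts of list members given below are to be read against these shares of all genes. For 2486 genes (18%) all 6 libraries of day 2.5 lay on the same side of all 6 of day 1.5. Of the called genes, 3663 (79.6%) changed the same way in all 6 pairs of libraries of the same clone and repeat, compared here and below after TMM scaling of the counts. The median log2 fold change of all genes tested was 0.02, with quartiles at -0.48 and 0.64. Without both cl4_R1 libraries 4123 genes were called, of which 3764 were also among the 4600. RNA of pooled cardioids was measured, so a fall can mean fewer cells of a type or less RNA per cell, and these cannot be told apart.

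**Figure D1:**
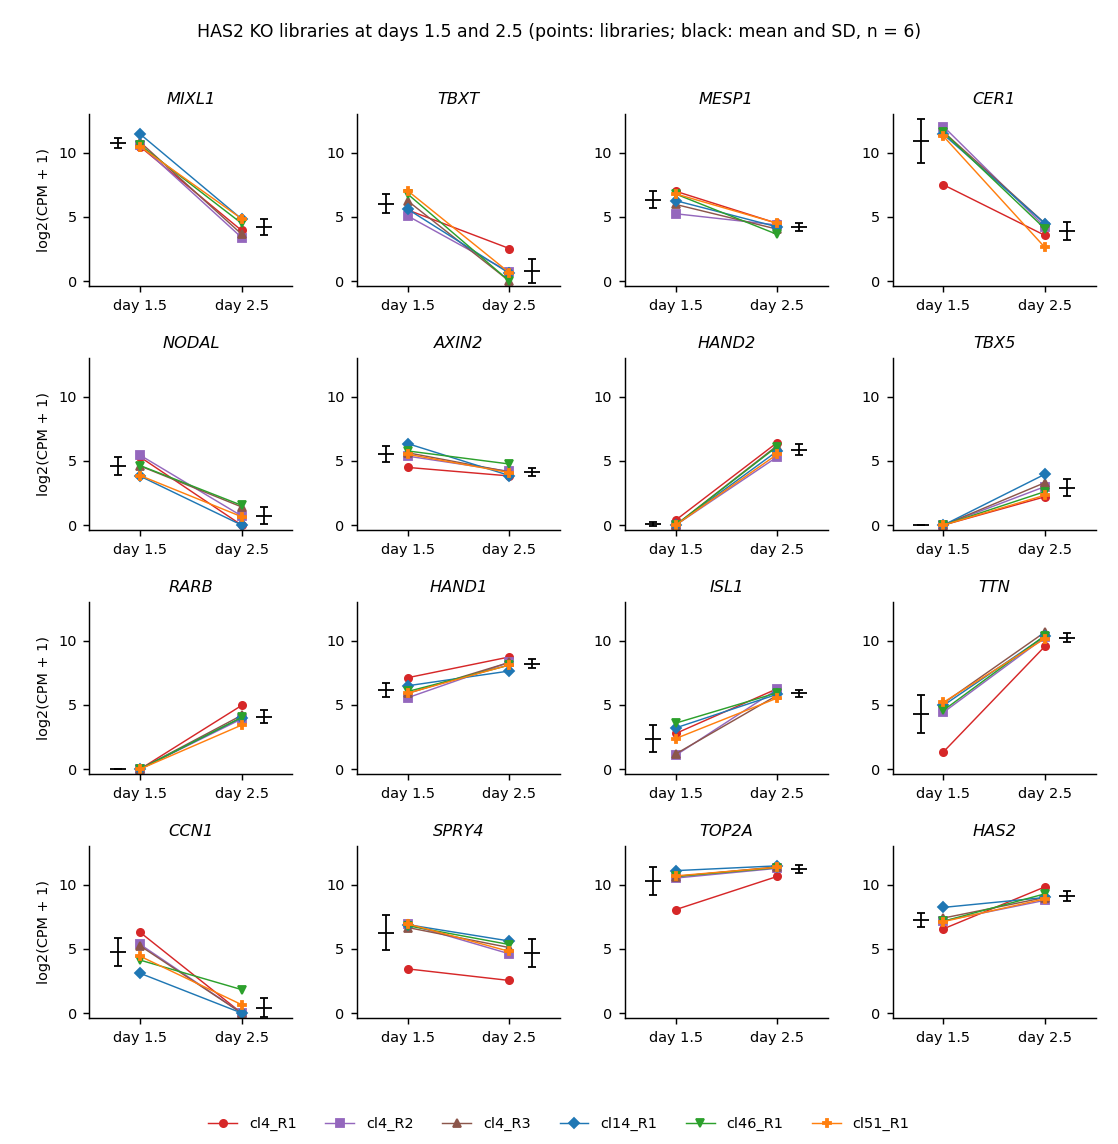
Levels of 16 genes in each KO library at days 1.5 and 2.5, as log2(CPM + 1); lines join libraries of the same clone and repeat, and black marks give mean and SD (n = 6 a day). MIXL1, TBXT, MESP1, CER1, NODAL and CCN1 are lower at day 2.5 in every pair and HAND2, TBX5, RARB, HAND1, ISL1, TTN and HAS2 are higher, while cl4_R1 (red circles) lies apart at day 1.5 in CER1, TTN, SPRY4 and TOP2A.

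The transcription factors of the primitive streak and nascent mesoderm fell furthest as a group. Of 20 members 15 were tested, and 12 were lower, 1 was higher and 2 did not pass the threshold, with a median log2 fold change of -2.32. MIXL1, a homeobox factor of the streak (chromosome 1, 226223618 to 226227054), had 1432 to 2824 CPM at day 1.5 (median 1560) and 9.55 to 28.1 CPM at day 2.5 (median 18.1), a log2 fold change of -6.75 ± 0.36 (SE, adjusted p = 8.18e-18). TBXT, the T-box factor known as Brachyury (chromosome 6, 166157656 to 166168700), went from 32.7 to 130 CPM (median 61.0) to 0 to 4.81 CPM (median 0.548), and the highest library of day 2.5 was cl4_R1. EOMES, the other T-box factor of the streak, had 1075 to 2536 CPM at day 1.5 and 44.2 to 108 at day 2.5 (log2 fold change -4.53). In all 3 genes the ranges of the days did not overlap. GSC, the organizer homeobox factor, fell by 6.33 on the log2 scale, EVX1 by 4.67, and LHX1, a LIM factor of anterior mesendoderm, by 1.84, from 1476 to 2939 CPM to 677 to 818 CPM. LHX1 thus kept at least 677 CPM in every library of day 2.5, whereas MIXL1, TBXT and GSC had at most 28.1 CPM.

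MESP1 and MESP2, neighbouring genes of the earliest heart-forming mesoderm and of somite segmentation, parted in the KO step. MESP1 (chromosome 15, 89748661 to 89751310) had 37.1 to 127 CPM at day 1.5 (median 93.0) and 11.5 to 21.8 CPM at day 2.5 (median 18.7), so the days did not overlap (log2 fold change -2.52 ± 0.39, adjusted p = 2.15e-06). MESP2 (chromosome 15, 89760591 to 89778754) had 28.2 to 97.5 CPM at day 1.5 and 20.5 to 64.2 CPM at day 2.5, with medians of 46.3 and 45.7 (log2 fold change -0.56 ± 0.38, adjusted p = 0.268). TBX6, a T-box factor of paraxial mesoderm, had 19.4 to 74.5 CPM and then 8.04 to 21.6 CPM (log2 fold change -1.61, adjusted p = 0.00674). Without both cl4_R1 libraries the TBX6 call was lost (adjusted p = 0.0522). FOXA2, a forkhead factor of endoderm and axial mesoderm, was the member that rose, from 0 to 7.59 CPM to 3.19 to 33.7 CPM (log2 fold change 2.84, adjusted p = 0.00365).

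Pluripotency genes that passed the test were mostly lower. Of 20 members 16 were tested, 5 were lower, 1 was higher and 10 did not pass the threshold, and the median was -0.40. POU5F1, the factor OCT4, which TCF19 overlaps on the other strand, had 199 to 415 CPM at day 1.5 and 48.1 to 79.8 CPM at day 2.5 (log2 fold change -2.33 ± 0.31, adjusted p = 1.06e-07). NANOG had 8.98 to 18.2 CPM at day 1.5 and was at the floor at day 2.5, at least 5.89-fold lower. L1TD1, an RNA-binding protein of stem cells, had 1176 to 1501 CPM in 5 libraries of day 1.5 but 311 CPM in cl4_R1, and 195 to 263 CPM at day 2.5, so the days did not overlap (log2 fold change -2.58). LIN28A, which blocks let-7 processing, had medians of 478 and 476 CPM and did not pass the threshold. SALL4 was the member that rose (log2 fold change 0.87, adjusted p = 0.0154), and without both cl4_R1 libraries it did not pass (0.56, adjusted p = 0.134).

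The NODAL and Activin pathway was called in both directions, 9 members lower and 5 higher of 17 tested (20 in the list, median -0.52). Among ligands and co-receptors, NODAL had 13.1 to 42.6 CPM at day 1.5 and was at the floor at day 2.5, at least 12.5-fold lower. TDGF1, the co-receptor CRIPTO, which LRRC2 overlaps on the other strand, had 33.7 to 382 CPM and then 7.78 to 14.6 CPM (log2 fold change -4.27). CFC1, the related co-receptor CRYPTIC, went the other way: it had no count in any library of day 1.5 and 59 to 111 CPM at day 2.5, at least 56.7-fold higher, although its reads may be shared with the near-identical copy CFC1B. The inhibitors split likewise. CER1, a secreted antagonist of NODAL, WNT and BMP, was among the most abundant of these transcripts with 2502 to 4251 CPM in 5 libraries of day 1.5 and 181 CPM in cl4_R1, and it had 5.17 to 21.7 CPM at day 2.5 (log2 fold change -7.60 ± 0.69, adjusted p = 4.06e-11). LEFTY2, a NODAL antagonist of the left body side, had 0 to 3.49 CPM at day 1.5 and 55.0 to 118 CPM at day 2.5 (log2 fold change 4.87 ± 0.54, adjusted p = 3.28e-09). PMEPA1, a feedback target of SMAD2 and SMAD3, fell by 5.26 on the log2 scale, while the SMAD partner FOXH1 rose by 0.79. The FOXH1 call was lost with only the third number set (0.46, adjusted p = 0.0746) and with the cl4 repeats summed (0.50, adjusted p = 0.105). INHBA, which encodes an Activin subunit, was called higher from at most 2.30 CPM at day 2.5, and this call was lost in 9 of 19 alternatives, among them the one without both cl4_R1 libraries (adjusted p = 0.0732). The higher members numbered 3 without cl46_R1 or cl4_R1 of day 1.5 or cl51_R1 of day 2.5.

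WNT feedback fell and secreted WNT antagonists exchanged places. Of 28 members 23 were tested, 14 were lower, 4 were higher and 5 did not pass (median -1.52). DKK4, a secreted WNT antagonist and feedback gene, had 112 to 323 CPM at day 1.5 and at most 1.04 CPM at day 2.5, at least 116-fold lower. DKK1, its relative, had 41.9 to 237 CPM and then 0 to 8.42 CPM (log2 fold change -6.24 ± 0.62, adjusted p = 2.24e-10). SFRP5, an antagonist of a different class, rose from at most 0.616 CPM to 41.3 to 107 CPM, at least 44.5-fold, and SFRP1 from 13.9 to 22.1 CPM to 216 to 370 CPM (log2 fold change 3.69 ± 0.22, adjusted p = 1.09e-16). Of the intracellular feedback genes, NKD1 fell by 3.95 on the log2 scale, SP5 by 5.59 and AXIN2 by 1.69. AXIN2 had 21.6 to 80.4 CPM at day 1.5 and 13.2 to 26.2 at day 2.5, and the days overlapped through cl4_R1 of day 1.5. The ligands WNT3 and WNT5A fell by 2.14 and 1.20, and RSPO3, an enhancer of WNT reception, fell by 4.86. The nuclear partners of beta-catenin parted: TCF7 fell by 2.08 and LEF1 rose by 1.03, from 14.5 to 37.3 CPM to 35.5 to 72.3 CPM, a call that was lost when the cl4 repeats of each day were summed (adjusted p = 0.0553).

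The promoters of the lower WNT genes were searched for the core of the TCF/LEF motif, CTTTGA, on both strands, in the 300 bases from 250 before to 50 after each start in RefSeq (GRCh38.p14). Of the 14 lower genes, 9 had a promoter in the table and 2 held a match, SP5 and DKK1. The windows around their matches are shown because these were the lower members with a match, and both fell to at most 8.42 CPM. Capitals mark the motif on either strand, and the SP5 window is chr2:170715150-170715299 and the DKK1 window chr10:52314092-52314231, both on the plus strand.
SP5: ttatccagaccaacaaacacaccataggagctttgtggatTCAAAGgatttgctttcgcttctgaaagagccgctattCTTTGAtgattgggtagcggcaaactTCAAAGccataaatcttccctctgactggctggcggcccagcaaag
DKK1: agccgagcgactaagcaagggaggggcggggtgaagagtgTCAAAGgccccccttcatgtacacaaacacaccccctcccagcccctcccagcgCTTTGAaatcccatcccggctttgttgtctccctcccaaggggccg
SP5 held 3 matches, from 83 to 147 bases before the start, and DKK1 held 2, at 95 and 149 bases before it. Across all 27305 genes with a promoter in that table, 15.5% held at least 1 match, and none of the 3 higher WNT genes found there did. Of 2 members found that did not pass the threshold, PORCN held a match. A match is a run of letters and not a measured binding site.

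The FGF list members that passed were mostly lower, and the higher ones were receptors. Of 21 members 18 were tested, with 9 lower, 3 higher and 6 not past the threshold (median -1.17). FGF17, a ligand of the FGF8 family, had 78.5 to 170 CPM at day 1.5 and 0.574 to 5.10 CPM at day 2.5 (log2 fold change -5.63 ± 0.46, adjusted p = 1.91e-11). ETV4, an ETS factor induced by FGF, fell by 2.73 and the membrane inhibitor IL17RD by 2.10, both without overlap. SPRY4, a feedback inhibitor of ERK signalling, had 101 to 123 CPM in 5 libraries of day 1.5 and 9.85 CPM in cl4_R1, and 23.6 to 48.1 CPM in 5 libraries of day 2.5 and 4.81 CPM in cl4_R1, so that the pair of cl4_R1 repeated the fall at a lower level (log2 fold change -1.87 ± 0.61, adjusted p = 0.0159). The SPRY4 call was lost with the cl4 repeats of each day summed (-1.77, adjusted p = 0.0712). In the WT libraries of the same block it had 9.63 and 19.6 CPM at day 1.5 against 109 to 131.7 CPM in the other 3. The 3 higher members were all receptors: FGFR1 rose by 0.75, FGFR2 by 1.64 and FGFR3 by 1.81, the last from 11.1 to 28.0 CPM to 56.1 to 120 CPM.

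BMP4 protein was in the medium throughout, and BMP pathway genes rose more often than they fell. Of 23 members 22 were tested, 10 were higher, 4 were lower and 8 did not pass (median 0.75). BMP5 had no count in any library of day 1.5 and 16.6 to 36.4 CPM at day 2.5, at least 14.9-fold higher, whereas the ligand BMP2 fell from 154 to 286 CPM to 60.3 to 144 CPM (log2 fold change -1.19) and BMP4 did not pass the threshold (-0.59 ± 0.28, adjusted p = 0.106). With the replicate block BMP4 passed (-0.55, adjusted p = 0.0313). Among extracellular modulators, BMPER rose by 2.49 and CHRD, which binds BMP ligands and which THPO overlaps on the other strand, by 4.85, from at most 2.00 CPM to 16.2 to 26.1 CPM, while NOG, another BMP antagonist, fell by 2.96. Of the ID genes, direct targets of SMAD1 and SMAD5, ID2 rose by 1.29 and ID4 by 1.97, and ID1 and ID3 did not pass (0.32 and 0.64). Of the transcription factors, TBX2 rose by at least 10.2-fold and MSX1 fell from 133 to 330 CPM to 22.9 to 57.5 CPM (log2 fold change -2.79 ± 0.34, adjusted p = 3.00e-08).

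The retinoid list had the highest median of the 18 lists, 2.35. Of 25 members 21 were tested, and 12 were higher, 1 was lower and 8 did not pass. With only the libraries compared, or only the third number set, 7 were higher, and with the replicate block 2 were lower, as also without cl51_R1 of day 2.5. RARB, the retinoic acid receptor beta (chromosome 3, 25174332 to 25597932, overlapped by TOP2B on the other strand), had no count at day 1.5 and 9.76 to 30.1 CPM at day 2.5, at least 10.8-fold higher. DHRS3, which reduces retinaldehyde, had 0 to 5.13 CPM and then 30.6 to 68.6 CPM (log2 fold change 4.56). CRABP2, a retinoic acid carrier, had 6.19 CPM in cl14_R1 and 37.3 to 80.7 CPM in the other 5 libraries of day 1.5, and 289 to 871 CPM at day 2.5 (log2 fold change 2.93). STRA6, the retinol importer, rose by 2.35, and the homeobox factors MEIS1 and MEIS2 rose by 5.75 and 5.04. CYP26A1, which degrades retinoic acid, was the member that fell, from 12.4 to 90.5 CPM (median 33.8) to 3.18 to 18 CPM (median 9.55), a log2 fold change of -2.27 ± 0.47 (adjusted p = 0.000235), lower in 6 of 6 pairs after TMM scaling although the days overlapped. In CPM on total counts the pair of cl14_R1 went from 12.4 to 13.6. ALDH1A2, the enzyme that makes retinoic acid, was called higher at 0 to 8.42 CPM at day 2.5, close to the floor.

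RARB and CYP26A1 moved in opposite directions, and they were the members whose promoters held the retinoid direct repeat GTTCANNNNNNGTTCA, searched on both strands in the same windows. The windows are shown for this reason. The RARB window is chr3:25428171-25428266 and the CYP26A1 window chr10:93073763-93073858, both plus strand, with the repeat's fixed letters in capitals. In CYP26A1 they read as the reverse strand.
RARB: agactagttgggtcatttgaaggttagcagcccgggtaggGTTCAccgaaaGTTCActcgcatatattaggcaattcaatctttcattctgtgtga
CYP26A1: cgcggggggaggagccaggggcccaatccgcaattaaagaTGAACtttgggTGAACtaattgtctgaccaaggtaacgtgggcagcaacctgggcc
The match began 52 bases before the start of RARB and 90 bases before that of CYP26A1. Of the 12 higher retinoid genes 10 had promoters in the table and RARB held the repeat, and the repeat was found in 19 of all 27305 genes (0.0696%). The presence of the letters says nothing of binding in these cells.

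Factors of cardiac mesoderm that passed were mostly higher. Of 38 members 34 were tested, 20 were higher, 2 were lower and 12 did not pass, with a median of 1.56, and for 20 of the tested members all day 2.5 libraries lay above all day 1.5 libraries. HAND2 (chromosome 4, 173524969 to 173530229), a basic helix-loop-helix factor of the heart fields, had at most 0.308 CPM at day 1.5 and 38.8 to 85.4 CPM at day 2.5, at least 38.5-fold higher. HAND1, its left-ventricular relative, was already present, with 46.5 to 139 CPM and then 200 to 427 CPM (log2 fold change 1.73 ± 0.32, adjusted p = 4.44e-05). HAND2 thus started from the floor and HAND1 from a measured level. TBX5, the T-box factor of the left ventricle and atria, had no count at day 1.5 and 3.61 to 14.6 CPM at day 2.5, at least 4.58-fold higher. MYOCD, a coactivator of SRF in muscle, had 4.62 to 13.8 CPM and then 70.0 to 207 CPM (log2 fold change 3.77). ISL1, a LIM factor of cardiac progenitors, had 1.11 to 11 CPM and then 45.3 to 75.8 CPM (log2 fold change 3.26). GATA5 rose by 3.99, MEF2C by 3.51, FOXF1 by 1.90 and PDGFRA, a receptor that marks cardiac progenitors, by 1.76.

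Members of this list did not all move together. GATA6 fell from 120 to 219 CPM to 49.1 to 134 CPM (log2 fold change -1.45 ± 0.18, adjusted p = 4.74e-08, lower in 6 of 6 pairs). GATA4 had medians of 55.9 and 61.3 CPM and a log2 fold change of 0.02 ± 0.32 (adjusted p = 0.969), with a sign that changed between alternatives. NKX2-5 had 6.48 to 72.4 CPM at day 1.5 and 7.66 to 22.9 CPM at day 2.5 and did not pass (-1.08 ± 0.63, adjusted p = 0.191). The GATA factors thus differed among themselves at this step: GATA5 rose, GATA6 fell and GATA4 did not pass the threshold.

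Transcripts of the contractile apparatus changed unevenly, and several of them were already counted at day 1.5. Of 30 sarcomere genes 29 were tested, 10 were higher, 4 were lower and 15 did not pass (median 1.32). Of those tested, 7 were at the floor on both days in KO, and the median includes them. With only the libraries compared, or only the third number set, 5 were higher. TTN, the giant spring protein titin (chromosome 2, 178525989 to 178830802), had 20.5 to 35.9 CPM in 5 libraries of day 1.5 and 1.54 CPM in cl4_R1, and 760 to 1638 CPM at day 2.5 (median 1282, log2 fold change 5.51 ± 0.71, adjusted p = 6.99e-08). In the WT libraries of the cl4_R1 block TTN had 0.602 and 1.12 CPM at day 1.5 and 218 and 325 CPM at day 2.5, the lowest WT values of each day. NEBL, a Z-disc protein, had 4.31 to 13.1 CPM and then 132.4 to 212 CPM (log2 fold change 4.32). TNNI1, the slow troponin I, had no count at day 1.5 and 6.27 to 15.6 CPM at day 2.5, at least 7.18-fold higher. TAGLN, a smooth muscle actin-binding protein that PCSK7 overlaps on the other strand, fell from 242 to 792 CPM to 32.5 to 78.9 CPM (log2 fold change -3.13), TPM1 fell by 1.14, and NPPB, the natriuretic peptide that the cardiomyocyte marker list holds, went from 3.99 to 68.6 CPM to no count, at least 13.4-fold lower. TNNT2, MYH6 and MYH7, which define beating cardiomyocytes, had at most 3 counts in each of the 12 libraries.

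**Figure D2:**
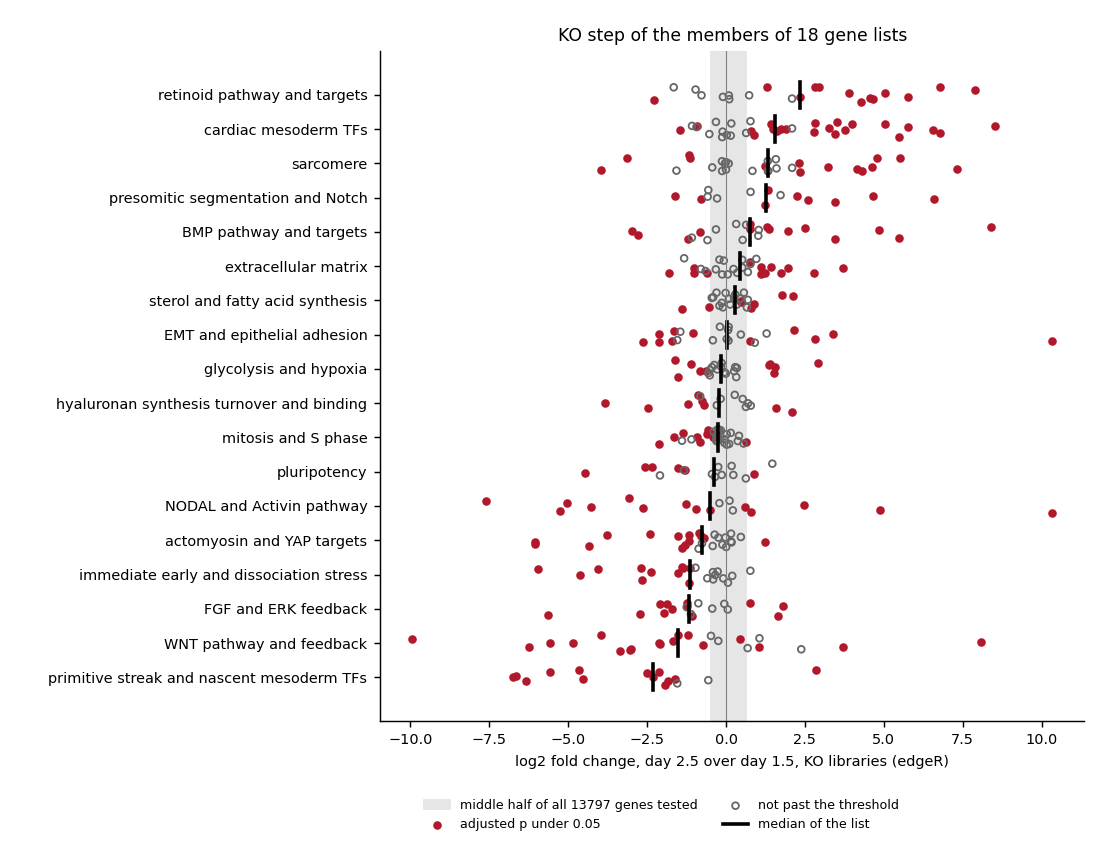
Log2 fold changes from day 1.5 to day 2.5 in KO libraries for the tested members of 18 gene lists (each point a gene; filled: adjusted p under 0.05; black bar: median of the list; grey band: quartiles of all genes tested, -0.48 to 0.64). The streak, WNT and FGF lists lie to the left, with medians of -2.32, -1.52 and -1.17, and the retinoid, cardiac and sarcomere lists to the right, with medians of 2.35, 1.56 and 1.32.

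The summed levels of marker lists give the other cell types that such aggregates may hold. For the labelled cell type, cardiac progenitor, the 14 markers summed to 711 to 1292 CPM at day 1.5 and 1081 to 1629 CPM at day 2.5. BMP4 and GATA6 made up most of this sum at day 1.5, and BMP4, HAND1 and PDGFRA at day 2.5. HAND2, TBX5, TBX20 and TNNT2 were at the floor at day 1.5. The 11 cardiomyocyte markers summed to 36.4 to 128 CPM and then 827 to 1719 CPM, most of it TTN at day 2.5. Endoderm markers (15 genes) summed to 90.3 to 147 and 209 to 466 CPM, with TTR, AFP and CLDN18 at most at 3 counts in all 12 libraries. Most of the endoderm sum at day 2.5 was GATA3, which the amnion and trophoblast list also holds. Of 12 endoderm markers tested, 5 were higher and 1 was lower. Neural ectoderm markers (14) summed to 465 to 570 and 414 to 532 CPM, with SOX1, PAX6 and HESX1 at most at 3 counts. Most of the neural sum was NES and OTX2 at day 1.5 and NES at day 2.5, and OTX2 is also in the streak list. ZIC1 had counts only in the libraries of cl46_R1 and cl51_R1. Amnion and trophoblast markers (14) summed to 50.4 to 93.3 and 296 to 557 CPM, led at day 2.5 by GATA3, ISL1 and GATA2 (ISL1 and HEY1 are also in the cardiac factor list), while GABRP, VTCN1, KRT7, WNT6, CGA and TP63 were at most at 3 counts. Endothelial and blood markers (17) summed to 58.7 to 87.3 and 93.6 to 176 CPM, most of it KDR at day 2.5, and TAL1, CDH5, CLDN5, FLI1, ERG, GFI1B, GATA1 and HBE1 were at most at 3 counts. The part of other cell types in the changes of single genes was not tested.

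Genes of presomitic segmentation and Notch signalling rose more often than they fell. Of 20 members 14 were tested, 7 were higher, 2 were lower and 5 did not pass (median 1.28). Without cl4_R1 or cl4_R2 of day 1.5 or cl14_R1 of day 2.5, 4 were higher, and without both cl4_R1 libraries none was lower. JAG1, a Notch ligand, had 4.49 to 10.1 CPM and then 149 to 245 CPM (log2 fold change 4.67 ± 0.33, adjusted p = 1.43e-14). RIPPLY1, a repressor that closes the segmentation programme, had 0 to 4.98 CPM and then 5.74 to 26.1 CPM (log2 fold change 2.59, adjusted p = 0.0142). UNCX, a somite homeobox factor, had no count at day 1.5 and 2.78 to 18 CPM at day 2.5. FOXC2, a forkhead factor of paraxial and second-heart-field mesoderm that the marker list of paraxial mesoderm holds, went from at most 2.00 CPM to 49.6 to 158 CPM (log2 fold change 6.55). TCF15 (1.24, adjusted p = 0.0395) and LFNG (1.32, adjusted p = 0.0244) were called higher and DLL3 lower (-0.80, adjusted p = 0.0337), and these calls were lost in 10, 6 and 12 of 21 alternatives. Without both cl4_R1 libraries LFNG was at 1.09 (adjusted p = 0.0611) and DLL3 at -0.66 (adjusted p = 0.110). The 11 paraxial and presomitic markers summed to 129 to 542 CPM at day 1.5 and 281 to 474 CPM at day 2.5, and MSGN1 and RIPPLY2 were at most at 3 counts. DLL3 and FOXC2 made up most of the sum at day 2.5.

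Epithelial and mesenchymal genes changed in both directions, with 5 of 22 tested members higher, 6 lower and 11 not past the threshold (26 in the list, median 0.04). Over all genes tested, 17.2% were higher and 16.1% were lower. With the replicate block 8 were higher. CRB2, an apical polarity protein needed for cells to leave the streak, had no count at day 1.5 and 77.5 to 108 CPM at day 2.5, at least 57.7-fold higher, although DENND1A overlaps it on the other strand. FN1, fibronectin, rose from 39.2 to 83.5 CPM to 634 to 856 CPM (log2 fold change 3.40 ± 0.26, adjusted p = 1.20e-13). KRT19, a simple-epithelium keratin, rose from 60.3 to 167 CPM to 708 to 1041 CPM (log2 fold change 2.82), and SNAI2, a repressor of epithelial genes, rose by 2.15. Both cadherins that passed were called lower. CDH2, N-cadherin, fell from 526 to 964 CPM to 163 to 311 CPM (log2 fold change -1.64), without overlap. CDH1, E-cadherin, had 2.06 to 31.4 CPM and then 3.13 to 9.18 CPM (-2.13). The days of CDH1 overlapped, and in CPM on total counts its pair of cl14_R1 went from 2.06 to 3.13. CDH11, a mesenchymal cadherin, had 8.00 CPM in cl4_R1 and 46.5 to 142 CPM in the other libraries of day 1.5, and 204 to 243 CPM at day 2.5, and did not pass (1.29, adjusted p = 0.0564) although the days did not overlap. With the replicate block it passed (1.54, adjusted p = 0.000512).

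The genes that make, bind and clear hyaluronan moved in both directions in the KO libraries. Of 25 members 16 were tested, 2 were higher, 6 were lower and 8 did not pass (median -0.23). The shares over all genes tested were 17.2% higher and 16.1% lower. Besides HAS2, the link protein gene HAPLN3 rose, from 1.27 to 5.50 CPM to 7.02 to 38.5 CPM (log2 fold change 2.09). The receptor CD44 fell from 21.6 to 32.4 CPM to 3.18 to 10.8 CPM (log2 fold change -2.46 ± 0.44, adjusted p = 2.74e-05), and the scavenger receptor STAB2 fell to the floor, at least 2.84-fold lower. UGP2 and UGDH, which make the UDP-sugar precursor, fell by 1.20 and 0.76, and the UGDH call was lost without both cl4_R1 libraries (-0.41, adjusted p = 0.195). The proteoglycan VCAN had medians of 451 and 572 CPM and the link protein HAPLN1 63.6 and 102 CPM, and neither passed the threshold (adjusted p = 0.492 and 0.0778). HAS1 and HAS3, the other synthases, were not among the genes tested.

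Of 30 other matrix genes 28 were tested, 9 were higher, 4 were lower and 15 did not pass (median 0.43). LAMA1, a laminin chain of early basement membranes, rose from 10.5 to 39.4 CPM to 79.4 to 126 CPM (log2 fold change 1.97 ± 0.31, adjusted p = 2.88e-06). COL1A2 rose by 1.75, FBN2, fibrillin 2, by 1.23, and the microfibril partner ELN by 3.69 from at most 1.54 CPM. COL6A1 and COL5A2 fell by 1.00 and 1.02.

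Among genes of the actin cytoskeleton and targets of YAP, those that passed were mostly lower. Of 26 members, all tested, 13 were lower, 1 was higher and 12 did not pass (median -0.77). ANKRD1, a YAP target, had 149 to 627 CPM at day 1.5 and 1.15 to 16.1 CPM at day 2.5 (log2 fold change -6.06 ± 0.56, adjusted p = 2.86e-11). CCN1 had 7.56 to 77.3 CPM and then 0 to 2.55 CPM (-6.03), and CCN2 had 8.25 to 41.5 CPM and then 0 to 7.22 CPM (-3.78). The days did not overlap in any of these 3. TEAD4, a DNA-binding partner of YAP, fell by 2.42 and MYH9, non-muscle myosin, by 1.29. ACTG1, gamma-actin, had 13067 CPM in cl4_R1, 1542 CPM in cl14_R1 and 4155 to 4381 CPM in the other 4 libraries of day 1.5, and 1790 to 2812 CPM at day 2.5, and it was lower in 5 of 6 pairs (log2 fold change -1.53, adjusted p = 0.00104). AXL was the member that rose (1.23). The ROCK inhibitor was in the medium of day 2.5 only, so its part cannot be told apart from the day.

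Immediate early and stress genes were called in 1 direction: 11 of 21 tested members were lower, none was higher and 10 did not pass (26 in the list, median -1.15). At an unadjusted p under 0.05 in edgeR 1 member was higher, and the alternatives, DESeq2 included, called 0 to 1 higher. IER3, an early-response survival gene, had 2074 to 4143 CPM at day 1.5 and 22.9 to 68.9 CPM at day 2.5 (log2 fold change -5.95 ± 0.35, adjusted p = 1.23e-16). FOS had 7.20 to 33.1 CPM and then at most 1.67 CPM, at least 9.60-fold lower, and EGR1 fell by 2.37. CDKN1A, a p53 target, did not pass (0.77, adjusted p = 0.0817). The days differ in dissociation and aggregation as well as in medium, and the part of each in these levels cannot be told apart.

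Most cell cycle genes did not pass the threshold. All 32 members were tested, 9 were lower, 1 was higher and 22 did not pass (median -0.27), and 5 were lower without both cl4_R1 libraries and 15 with only the third number set. CCND1, cyclin D1, fell from 160 to 309 CPM to 38.5 to 104 CPM (log2 fold change -2.12 ± 0.34, adjusted p = 4.08e-06), and RRM2, a subunit of ribonucleotide reductase, fell by 1.65. TOP2A, a topoisomerase of dividing cells, had 1475 to 2202 CPM in 5 libraries of day 1.5 and 267 CPM in cl4_R1, and 2493 to 2853 CPM in 5 libraries of day 2.5 and 1606 CPM in cl4_R1. It was higher in 6 of 6 pairs and did not pass (0.55 ± 0.39, adjusted p = 0.288). With the replicate block TOP2A passed (0.70, adjusted p = 0.0035). MKI67, a proliferation marker, had 101 CPM in cl4_R1 and 685 to 874 CPM in the other libraries of day 1.5, and did not pass (-0.05 ± 0.40, adjusted p = 0.943).

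Of 26 glycolysis and hypoxia genes 24 were tested, 5 were higher and 5 were lower (median -0.15), where 17.2% and 16.1% of all genes tested were. The higher members included DDIT4, an inhibitor of mTORC1, from 4.43 to 17.3 CPM to 67.5 to 143 CPM (log2 fold change 2.92 ± 0.36, adjusted p = 2.80e-08), and VEGFA (1.35). The lower members included the glucose transporter SLC2A3 (-1.53) and the enzyme PKM (-1.61), and the PKM call was lost without both cl4_R1 libraries (-1.09, adjusted p = 0.0669), where 3 members were lower. Of 25 sterol and fatty acid genes 24 were tested, 6 were higher and 2 were lower (median 0.27). The higher ones numbered 3 with the cl4 repeats summed, 10 with the replicate block and 12 with only the third number set. The sterol desaturase SC5D rose by 1.77, from 29.6 to 62.2 CPM to 137 to 220 CPM.

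Among the 10 genes with the highest fold changes, some belong to none of these lists. TFPI, the inhibitor of tissue factor in coagulation, had at most 2.06 CPM at day 1.5 and 253 to 366 CPM at day 2.5, at least 206-fold higher and the largest bound of the 10. GREB1L, a gene linked to retinoic acid and kidney development, went from at most 1.66 CPM to 118 to 197 CPM, at least 91.1-fold. LRP2, the endocytic receptor megalin, rose by at least 35.5-fold, CXXC4, an intracellular WNT inhibitor, by at least 43.1-fold, and DIO2, which activates thyroid hormone, by at least 38.2-fold. H19, an imprinted non-coding RNA, had 36.9 to 91.2 CPM in 5 libraries of day 2.5 and 1.20 CPM in cl4_R1. Among the 10 lowest, TUBA4A, an alpha-tubulin that STK16 and TUBA4B overlap on the other strand, fell from 35.9 to 81.3 CPM to 0 to 6.02 CPM (log2 fold change -5.65).

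**Figure D3:**
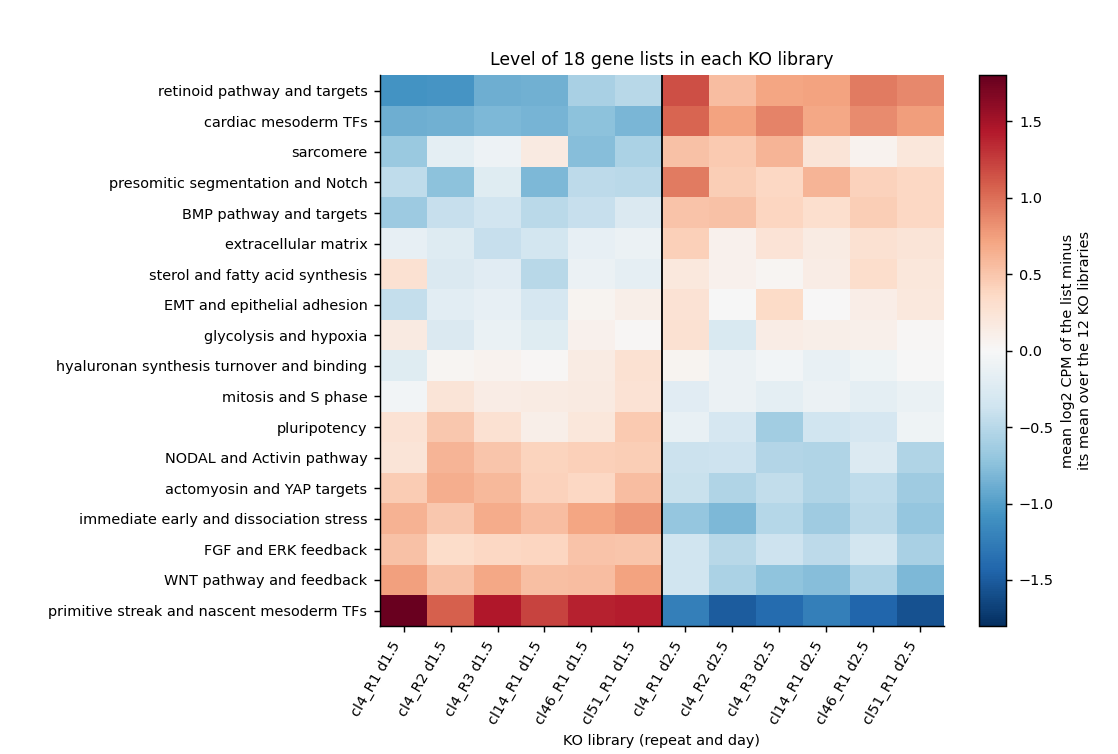
Mean log2 CPM of the tested members of each list in each KO library, as the difference from the list's mean over the 12 libraries (red higher, blue lower; day 1.5 left of the line, day 2.5 right of it). In the streak list the libraries of day 1.5 lie between 1.08 and 1.78 and those of day 2.5 between -1.57 and -1.23.

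The 6 KO repeats agreed on the large movements and differed in others. In the mean of the streak list, libraries of day 1.5 lay 1.08 to 1.78 above and libraries of day 2.5 1.23 to 1.57 below the mean of the 12. In the mean of the cardiac factor list, day 1.5 ranged from -0.89 to -0.74 and day 2.5 from 0.69 to 1.05. In the sarcomere list the days overlapped: cl14_R1 of day 1.5 was at 0.16, above cl46_R1 of day 2.5 at 0.07. The hyaluronan list showed no separation of the days, with -0.22 to 0.28 at day 1.5 and -0.13 to 0.05 at day 2.5. Each value is a mean over genes chosen with results of these data known, so it describes these libraries and is not tested.

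The WT step was then used to ask whether the KO cells passed this day differently. The WT step called 4153 genes (30.1%), and 3227 were called in both, 70.2% of the KO calls and 77.7% of the WT calls, with the same direction in 3224. The steps use different libraries and share the estimate of spread. Across genes the log2 fold changes of the steps had r = 0.859. Of 1373 genes called in the KO step only, the difference of the steps itself passed for 2.

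**Figure D4:**
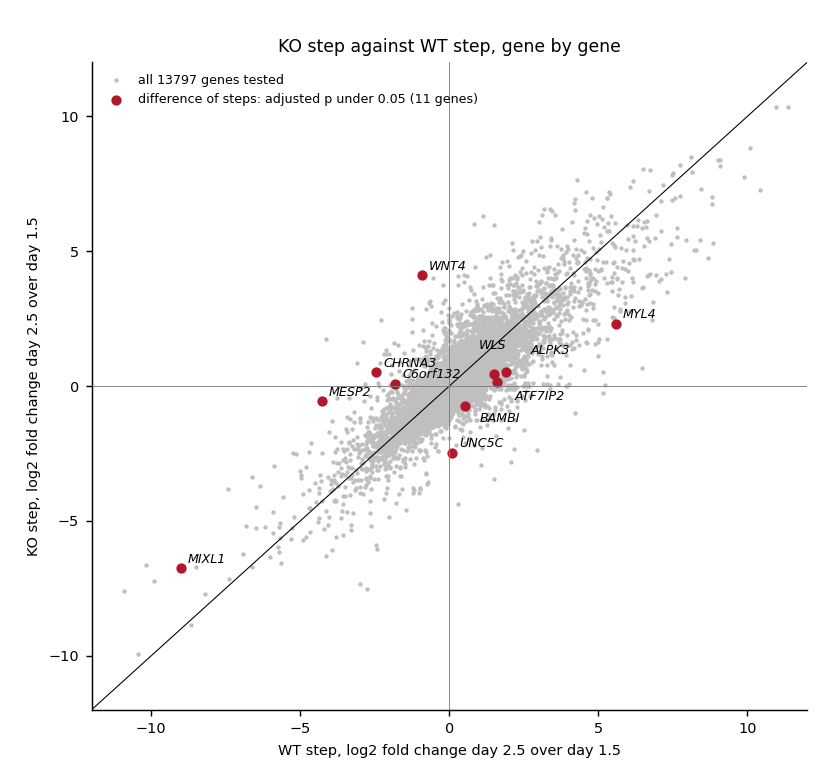
Log2 fold change of the KO step (vertical) against that of the WT step (horizontal) for the 13797 genes tested, with the line of equal steps; red points are the 11 genes whose difference passed an adjusted p of 0.05. MESP2, C6orf132, CHRNA3, WNT4 and MIXL1 lie above the line, and MYL4, ALPK3, ATF7IP2, WLS, BAMBI and UNC5C below it.

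The difference between the steps passed for 11 genes (0.0797%), 5 with a higher and 6 with a lower KO step, and 650 genes (4.71%) had an unadjusted p under 0.05. DESeq2 called 31 and the paired fit with a replicate block 34, of which 10 were among the 11, and 1 remained, MESP2, when the cl4 repeats of each day were summed. Leaving out single libraries gave 3 to 20. The count thus moved with the fit, while MESP2 was called in each of the 31 alternatives. Without both cl4_R1 libraries 12 were called, 9 of them among the 11.

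MESP2 had the smallest adjusted p. In WT it fell from 39.3 to 105 CPM to 1.97 to 8.02 CPM (log2 fold change -4.27 ± 0.46), while in KO it had 28.2 to 97.5 CPM and 20.5 to 64.2 CPM. All 6 KO libraries of day 2.5 were above all 6 WT libraries of that day, and at day 1.5 the genotypes overlapped. The difference of the steps was 3.71 ± 0.59 (SE, adjusted p = 0.00259). MIXL1 fell in both, to 9.55 to 28.1 CPM in KO and 0.510 to 5.14 CPM in WT, and the difference was 2.26 ± 0.46 (adjusted p = 0.0383), a call lost in 11 of 31 alternatives (highest adjusted p = 0.132). MESP1 had a like difference of 2.61 that did not pass (adjusted p = 0.0667). C6orf132, a gene without a role that can be named here, kept 65.7 to 110 CPM at day 2.5 in KO and 16.7 to 32.1 CPM in WT (difference 1.91 ± 0.35, adjusted p = 0.0148).

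Among the remaining differences, MYL4, the atrial light chain of myosin, reached 12.8 to 23.3 CPM in KO and 25.3 to 102 CPM in WT from at most 6.09 CPM (difference -3.28 ± 0.70, adjusted p = 0.0463), and ALPK3, a kinase-like protein of the sarcomere, reached 65.0 to 98.4 CPM in KO and 142 to 203 CPM in WT (difference -1.39 ± 0.26, adjusted p = 0.0152). MYL4 did not pass with the replicate block. WLS, which carries WNT proteins to the cell surface, reached 100 to 188 CPM in KO and 181 to 295 CPM in WT (difference -1.04, adjusted p = 0.0463), and BAMBI, a decoy receptor for BMP and TGF-beta, fell in KO and rose in WT (difference -1.27, adjusted p = 0.0463). ATF7IP2 had 26.8 to 35.0 CPM in KO and 60.5 to 92.9 CPM in WT at day 2.5 (difference -1.43, adjusted p = 0.0383). The calls of MYL4, WLS, BAMBI and ATF7IP2 were lost in 16 to 25 of 31 alternatives, MYL4 also without both cl4_R1 libraries (-3.27, adjusted p = 0.109).

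WNT4, CHRNA3 and UNC5C passed at levels under 20 CPM, below the minimum set for naming, and were chosen after their values were seen. WNT4, a secreted ligand, was at the floor in KO at day 1.5 and had 4.45 to 18 CPM at day 2.5, at least 6.34-fold higher, against 0.903 to 5.17 and 1.02 to 2.79 CPM in WT. CHRNA3, a nicotinic receptor subunit that CHRNA5 overlaps on the other strand, had 15.6 to 21.9 CPM in KO and 0 to 5.86 CPM in WT at day 2.5. UNC5C, a netrin receptor, fell to 0.574 to 3.83 CPM in KO and had 2.78 to 21.9 CPM in WT at day 2.5 (difference -2.56, adjusted p = 0.0398). The call of CHRNA3 was lost in 16 and that of UNC5C in 17 of 31 alternatives, UNC5C also without both cl4_R1 libraries (-2.44, adjusted p = 0.0852). The calls of WNT4, ALPK3 and C6orf132 were lost in 2, 2 and 1.

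**Figure D5:**
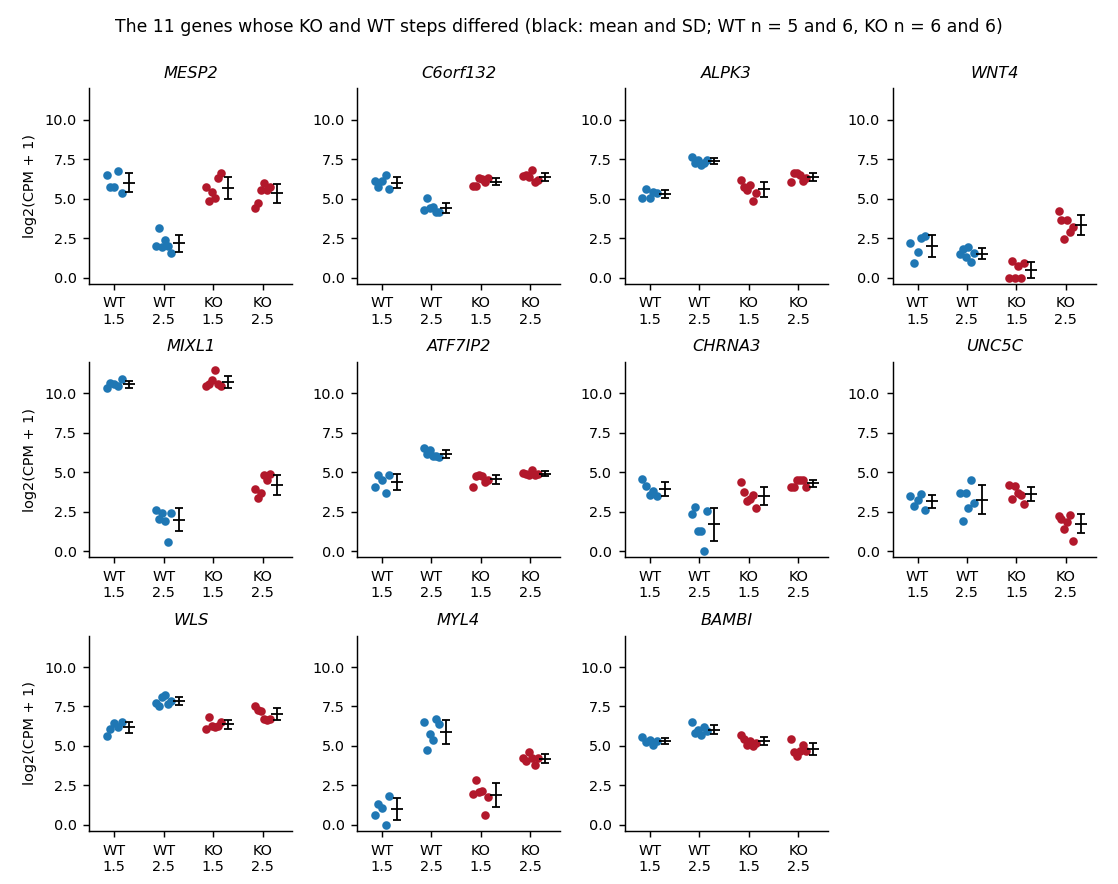
Levels, as log2(CPM + 1), of the 11 genes whose KO and WT steps differed, in each WT library (blue, 5 at day 1.5 and 6 at day 2.5) and KO library (red, 6 and 6), with mean and SD in black. In MESP2, C6orf132 and CHRNA3 the KO libraries stay high at day 2.5 where the WT libraries are low, and in MYL4, ALPK3, WLS and ATF7IP2 they are lower than most or all WT libraries of that day.

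The presomitic and Notch list had a median step of 1.28 in KO and -0.13 in WT. The paraxial marker list, of which 6 of 11 members were tested, had 1.74 and -0.99. Its summed levels were 129 to 542 CPM in KO and 213 to 747 CPM in WT at day 1.5. At day 2.5 they were 281 to 474 CPM in KO and 65.3 to 214 CPM in WT. Most of the KO sum at day 2.5 was DLL3 and FOXC2. DLL3 was called lower in the KO step (-0.80, lost in 12 of 21 alternatives), and FOXC2 is also in the cardiac factor list. No member of the paraxial marker list and 1 of the 14 tested members of the presomitic list, MESP2, passed the test of the difference. The cardiac factor list had medians of 1.56 and 1.39, with no member's difference called. The cardiac progenitor markers tested had medians of 1.73 and 2.19, also without a called difference. At day 2.5 they summed to 1081 to 1629 CPM in KO and 1712 to 3508 CPM in WT. At day 1.5 these sums were 711 to 1292 and 904 to 1537 CPM. In KO, BMP4 and GATA6 made up most of the sum at day 1.5, and BMP4, HAND1 and PDGFRA at day 2.5. The cardiomyocyte markers had medians of 0.08 and 2.19, with the difference called for MYL4. Of these 11 markers, 3 were at the floor on both days in KO, and the KO median includes them. In KO 3 were higher, TTN and TNNI1 among them, 1 was lower and 7 did not pass. In WT 7 were higher and 1 was lower. The cardiomyocyte sums at day 2.5 were 827 to 1719 CPM in KO and 325 to 2825 CPM in WT. Sums were not tested.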

How the data were processed

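RNA of pooled cardioids was sequenced from the 3′ end of transcripts (QuantSeq 3′ FWD, per the labels' protocols). The authors deposited raw counts per gene for 58735 genes. FeatureCounts of Subread 1.6.2 and build GRCh38 come from the submitters' processing notes, and the aligner and the handling of strand, multi-mapping reads and molecular identifiers are not given in the sources used here. All gene identifiers were found in GENCODE 29, which gave symbols and coordinates. A further 4 columns match none of the samples listed and were left out.

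The counts were tested with edgeR 4.0.16 (R 4.3.3, limma 3.58.1): filterByExpr with a minimum count of 10, TMM scaling, and a robust quasi-likelihood fit with a mean for each group over the 41 libraries of the genotype arm, which share an estimate of spread. P-values were adjusted by Benjamini and Hochberg over all 13797 genes tested, and all adjusted p-values given for single genes come from this test unless another fit is named. CPM values use total counts per library. Intervals, floors (3 counts) and p-values cover counting error and the spread between these libraries. The labels speak of at least 3 biological replicates a condition, without saying which repeats of a clone were separate cultures. No pair of KO replicates agreed within sampling noise (chi-square per degree of freedom 2.1 to 81.8 over 30 pairs). For a gene at the floor on 1 day, a fold is a bound against 3 counts.

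KO libraries of the same name share a clone across days, but all cl4 repeats share theirs too, and the labels do not say whether same-named libraries share a differentiation. The correlation of their deviations was 0.0811 to 0.283 over 6 KO pairs (above 0.1 in 4, and 0.086 and 0.0811 in cl4_R2 and cl4_R3) and at least 0.351 over 5 WT pairs, and the block is given as an alternative. Directions in pairs were taken after TMM scaling. The alternatives were RLE scaling, no filter on low counts, DESeq2 1.42.0, a replicate block, the library number set as a term, fits of only the libraries compared or only the third number set, cl4 repeats summed, and each library left out. Leaving out both cl4_R1 libraries was added after seeing the data.

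The libraries, gene lists (18 lists, 7 marker groups) and tests were chosen with earlier results of these data known. Genes named for the step were the 10 highest and 10 lowest fold changes among genes with an adjusted p under 0.05, a change of at least 2-fold, a mean of at least 50 CPM on the higher day and the same direction in 6 of 6 pairs. For the difference of steps they were up to 5 in each direction with a mean of at least 20 CPM in a group. HAS2 and list members, with preference for the 2 highest and 2 lowest called, completed them, and a few are not reported here. Promoters are from RefSeq (GRCh38.p14).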

Additional observations from a re-analysis of the deposited data

Results flagged for a closer look

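In groups of 6 libraries, a library separated from the others by more than 0.625 of the group's range on the log2 scale was noted. Of 273 groups of values examined, total counts included, 35 held such a library, and chance alone gives about 1 in 20. The repeat cl4_R1 accounted for 16 at day 1.5 and 11 at day 2.5, among them its total count at day 2.5, 831062 against 1567514 to 1914654.

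At day 1.5 cl4_R1 was low in CER1 (181 CPM against 2502 to 4251), DKK4 (112 against 225 to 323), L1TD1 (311 against 1176 to 1501), SALL4 (95.4 against 220 to 310), RSPO3 (17.2 against 86.9 to 145), SPRY4 (9.85 against 101 to 123), ID2 (24.0 against 67.4 to 121), TTN (1.54 against 20.5 to 35.9), VCAN (139 against 428 to 512), MKI67 (101 against 685 to 874) and TOP2A (267 against 1475 to 2202). It was high in EOMES (2536 against 1075 to 1459), SP5 (177 against 41.1 to 64.5), LIN28A (903 against 364 to 509), UGDH (142 against 52.2 to 76.1) and FBN2 (254 against 185 to 211).

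At day 2.5 cl4_R1 was low in H19 (1.20 CPM against 36.9 to 91.2), IER3 (22.9 against 49.7 to 68.9), L1TD1 (195 against 229 to 263), SPRY4 (4.81 against 23.6 to 48.1), MKI67 (409 against 699 to 818) and TOP2A (1606 against 2493 to 2853). It was high in TBXT (4.81 against at most 0.637), FOXC2 (158 against 49.6 to 71.7), FBN2 (945 against 466 to 547) and GATA2 (111 against 32.1 to 44.6). The cause of the separation of cl4_R1 was not tested.

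The library cl14_R1 of day 1.5 was high in MIXL1 (2824 CPM against 1432 to 1832) and low in FGFR2 (4.81 against 11.1 to 16.5), ID3 (24.7 against 211 to 606) and CRABP2 (6.19 against 37.3 to 80.7). At day 2.5 it was high in ATF7IP2 (35.0 against 26.8 to 30.1) and low in LEF1 (35.5 against 63.8 to 72.3). The library cl4_R2 of day 2.5 was low in SLC2A3 (247 CPM against 356 to 394), and cl51_R1 of day 2.5 was high in CDKN1A (16.1 against 8.29 to 9.45).

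The KO step differed from the WT step by the test of the difference itself (edgeR, adjusted p under 0.05) in 11 genes. The KO step was higher by 3.71 on the log2 scale in MESP2, 1.91 in C6orf132, 5.03 in WNT4, 2.26 in MIXL1 and 2.96 in CHRNA3. The KO minus WT difference was -1.39 in ALPK3, -1.43 in ATF7IP2, -2.56 in UNC5C, -1.04 in WLS, -3.28 in MYL4 and -1.27 in BAMBI.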

How the results depend on the processing

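The number of genes called in the KO step stayed within 1.5 times 4600 in all 21 alternatives. It was 4600 with RLE scaling, 4384 without the filter, 4891 with DESeq2, 5736 with the replicate block, 5789 with the number set as a term, 3414 with only the libraries compared, 4217 with the third number set only, 3572 with the cl4 repeats summed, 4123 without both cl4_R1 libraries, and 4224 to 4432 without each KO library. The WT step gave 2736 calls when only the libraries compared were fitted, and 3718 to 4093 without each library. The count of 11 differences between the steps was 7 without the filter, 31 with DESeq2, 34 with the replicate block, 28 with the number set as a term, 5 with only the libraries compared, 1 with the cl4 repeats summed, and 3 (without KO cl4_R3 of day 1.5) to 20 (without WT_TU_R1 of day 2.5) without each library. Fewer samples enter the fit where repeats are summed or libraries left out; otherwise the cause was not tested.

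Of 148 genes named for the KO step 131 were called, and 118 of these were called in every alternative that gave a value; 13 lost the call in at least 1, and none reversed. Signs turned in 3 genes that were not called. C6orf132 was at -0.00635 (without cl14_R1 of day 2.5) to 0.151 without single libraries. GATA4 was at -0.0145 without the filter, -0.0334 with the cl4 repeats summed, and -0.13 to 0.252 without single libraries. MKI67 was at 0.0667 with the replicate block, 0.0975 with the number set as a term, and -0.27 to 0.0829 without single libraries. Counts of list members moved by over 1.5 times in further cases. With the cl4 repeats summed, 2 WNT genes in place of 4 were higher and no pluripotency gene was. Without the filter, 3 NODAL and 3 sterol genes were higher. With only the third number set, 3 pluripotency, 3 NODAL and 4 hyaluronan genes were higher and no streak factor was. With the number set as a term, 8 epithelial and mesenchymal and 10 sterol genes were higher. Other such moves were by 1 or 2 members in counts of 5 or fewer. Genes under 3 counts in a library limit folds to bounds, and cl4_R1 of day 2.5, the shallowest library, sets the weakest floor at 3.61 CPM.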
